A study of Homo sapiens with 6 samples.

Results

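The plasminogen activation system was followed through 9 genes of 52401 in the deposited tables: PLAU, PLAT, PLG, PLAUR, SERPINE2, F3, TFPI, TFPI2 and THBD. They were taken by gene symbol, with earlier results of these data known, and each was found once. In this system the proteases urokinase (PLAU) and tissue plasminogen activator (PLAT) cut plasminogen (PLG) to plasmin, which dissolves fibrin and degrades matrix around cells. The urokinase receptor (PLAUR) holds urokinase at the cell surface, and serpins such as SERPINE2 trap both activators. Fibrin itself is laid down by a cascade that tissue factor (F3) starts, tissue factor pathway inhibitors (TFPI, TFPI2) restrain and thrombomodulin (THBD) turns towards the anticoagulant protein C. Mammary epithelial cells are known to make urokinase and its receptor, while circulating plasminogen comes mainly from the liver.

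RNA was sequenced from MCF10A cells, an immortalised, non-tumour human mammary epithelial line. The flotillin line stably co-expressed Flotillin1-HA and Flotillin2-mCherry after infection with 2 retroviral vectors and selection with puromycin and hygromycin. The control line stably expressed mCherry after infection with 1 retroviral vector and selection with puromycin. Flotillins are membrane proteins that assemble in lipid-rich domains and take part in endocytosis. Both lines grew in medium with horse serum, insulin, EGF, hydrocortisone and cholera toxin, and no treatment or time course separated them. Each condition is 1 stable line with 3 libraries, so flotillin level, vector number, hygromycin and line history cannot be told apart, and in bulk RNA fewer cells with a transcript and less RNA per cell cannot be told apart either. The labels do not say that the 3 libraries of a line came from separate cultures, and the p-values below therefore cover only the spread among these 3, which may be technical.

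The files give 1 mean per group, from which the reads of each library were solved, with 18898404 to 19914103 reads per library in the solved genes. A normalized count below is reads divided by the library's size factor. The libraries carry no replicate number and are called libraries 1 to 3 of each line, by falling size factor. Library 3 of each line stood apart in a partly shared way: it held 47.9% of the squared within-group deviations in the flotillin line and 46.4% in the control line, over 15916 genes, and across those genes, which are not independent, the deviations of both library 3s correlated with Pearson r = 0.506. FLOT1 had 17243, 14137 and 18932 normalized counts in the flotillin libraries, against 1898, 1359 and 1166 in the control libraries. FLOT2 had an authors' mean of 41052 in the flotillin line and 3727 ± 913 in the control line (SD, n = 3). In the MCF10A identity check, 6 of 8 basal epithelial markers were called lower in the flotillin line (DESeq2, authors' table), beside 12% of all genes tested. TP63 averaged 25.6 ± 13.7 normalized counts in flotillin cells and 1765 ± 425 in control cells (SD, n = 3 each). KRT5 remained abundant at means of 67351 in flotillin cells and 48381 in control cells.

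The promoters of 7 of the 9 members are in the RefSeq table (GRCh38.p14), and 4 are printed because they belong to urokinase and the inhibitor SERPINE2, which differed in opposite directions, and to the receptor and tissue factor, which were highest in library 3 of both lines. SERPINE2, THBD and TFPI2 were highest in library 3 of both lines too. Each is the 250 bases before the annotated start, 5′ to 3′ on the gene's strand; where a gene has more than 1 window, the one with more motif matches is shown. Capitals mark letters that match AP-1 (TGANTCA), the E-box CACCTG, the GC box GGGCGG or the TATA box TATAAA on either strand.
PLAU, chr10:73910882-73911131, plus strand: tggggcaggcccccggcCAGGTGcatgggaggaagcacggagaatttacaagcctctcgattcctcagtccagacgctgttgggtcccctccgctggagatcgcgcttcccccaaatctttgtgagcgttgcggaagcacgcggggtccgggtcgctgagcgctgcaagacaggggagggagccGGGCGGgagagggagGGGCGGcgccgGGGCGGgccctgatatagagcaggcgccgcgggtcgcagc
SERPINE2, chr2:224038641-224038890, minus strand: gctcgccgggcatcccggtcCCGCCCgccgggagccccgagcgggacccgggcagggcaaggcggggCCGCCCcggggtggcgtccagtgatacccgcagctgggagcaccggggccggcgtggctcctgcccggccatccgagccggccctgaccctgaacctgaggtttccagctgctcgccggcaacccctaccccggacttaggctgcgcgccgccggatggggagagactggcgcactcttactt
PLAUR, chr19:43670170-43670419, minus strand: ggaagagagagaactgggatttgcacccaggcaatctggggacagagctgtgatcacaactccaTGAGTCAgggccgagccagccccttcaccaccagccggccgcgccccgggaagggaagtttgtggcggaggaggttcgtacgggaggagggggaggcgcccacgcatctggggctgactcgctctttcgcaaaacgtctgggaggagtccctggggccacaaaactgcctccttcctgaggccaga
F3, chr1:94541760-94542009, minus strand: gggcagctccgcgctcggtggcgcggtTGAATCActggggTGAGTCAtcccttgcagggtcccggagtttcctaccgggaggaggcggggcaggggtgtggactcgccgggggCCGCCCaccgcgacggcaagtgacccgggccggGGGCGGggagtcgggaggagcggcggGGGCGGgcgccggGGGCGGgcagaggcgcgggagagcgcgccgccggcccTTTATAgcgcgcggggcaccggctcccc

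The PLAU window held 3 GC boxes, 66, 51 and 40 bases before the start, and 1 E-box 233 bases before it. The SERPINE2 window held 2 GC boxes, and no match to the other motifs. The PLAUR window held a single match, an AP-1 motif (TGAGTCA) 186 bases before the start. F3 held AP-1 motifs 223 and 210 bases before its start, 4 GC boxes, and a TATA box on the opposite strand 28 bases before it. Of the 10 windows of the 7 members, AP-1 was in 3 (F3, PLAUR and TFPI2), where 6.57% of 35116 RefSeq windows hold it. The GC box was in 5 of the 10, where 42.6% of all windows hold it. The E-box was in 1 of the 10 (17.5% of all windows) and the TATA box in 1 of the 10 (10.7% of all windows). These matches describe letters, and occupancy of the motifs was not measured.

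In the flotillin line, transcripts of both activators were lower and the activator inhibitor SERPINE2 was higher. The receptor and thrombomodulin were also lower in the authors' table, with calls that changed with the method. By the authors' deposited table of means (DESeq2, adjusted p under 0.05), 5 of 9 members were called. Of these, 4 were lower (PLAU, PLAT, PLAUR and THBD), where 12% of all 19733 genes tested (2363) were lower, and 1 was higher (SERPINE2), where 11.6% were higher. PLG, F3, TFPI and TFPI2 did not pass. The median log2 fold change over the 9 members was -1.12, beside -0.04 over all genes tested; that median is the value of TFPI2, which rests on few reads, and it was -1.0 over the other 8. Calls in either direction took 23.6% of all genes tested. In limma, fitted to log2(normalized count + 1) of genes with a mean of at least 10, 4 of the 8 members fitted were called (PLAU, PLAT, SERPINE2 and THBD), where 23.4% of 15916 genes were. In the authors' deposited FPKM table, 4 of the 8 members marked as tested were called (PLAU, PLAT, PLAUR and SERPINE2, q under 0.05), where 16.9% of genes were. Flotillin and control libraries did not overlap for 4 of the 9 members, beside 45.2% of 15916 genes, which do not include TFPI2.

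**Figure D1:**
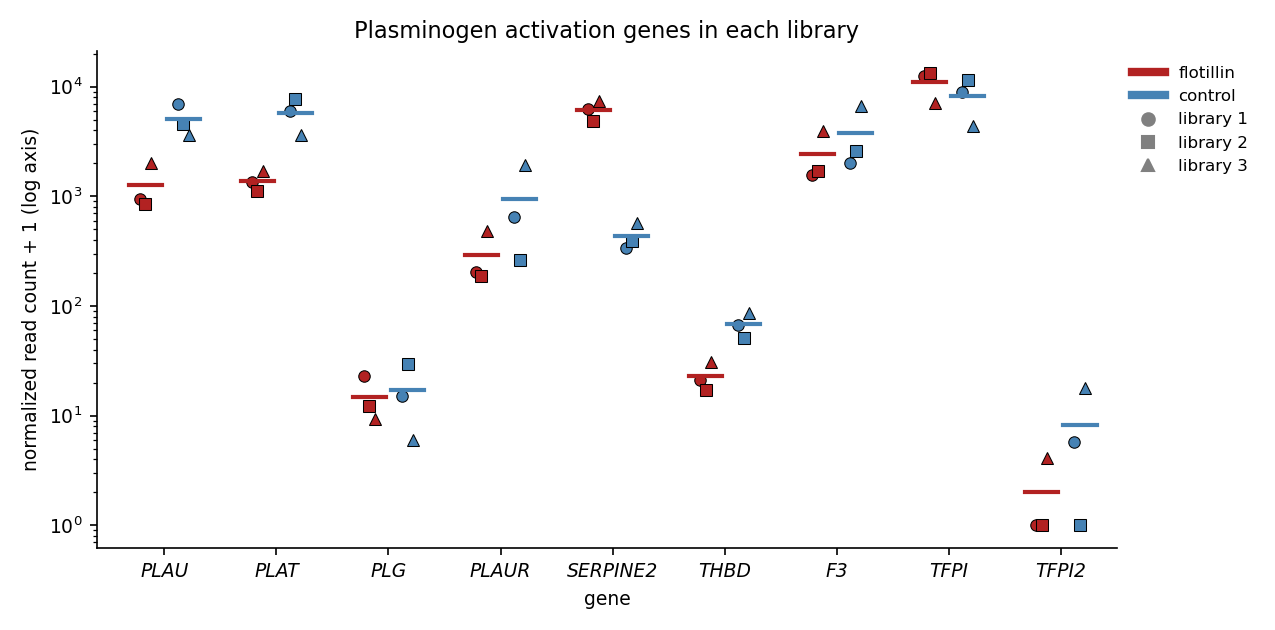
Normalized count (reads divided by size factor, log axis with 1 added) of each of the 9 members in the 3 flotillin libraries, left, and the 3 control libraries, right; symbols are libraries 1 to 3 and bars are group means. PLAU, PLAT and THBD lie lower and SERPINE2 higher in all flotillin libraries, and the other 5 members overlap.

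PLAU (ENSG00000122861, GRCh37 chromosome 10, 75668935 to 75682535) encodes urokinase, the activator that works mainly at cell surfaces. It had 939, 854 and 1993 normalized counts in flotillin libraries 1 to 3, against 6933, 4576 and 3597 in control libraries 1 to 3. The highest flotillin library lay below the lowest control library, and the 2 libraries nearest each other were library 3 of each line. PLAU averaged 1262 ± 635 in flotillin cells and 5035 ± 1715 in control cells (SD, n = 3 each), 3.99-fold lower in flotillin cells. The authors' deposited log2 fold change was -1.85 (DESeq2, adjusted p = 2.87e-05), and limma gave -2.05 with a standard error of 0.373 (adjusted p = 0.0111). Without library 3 of both lines the limma value was -2.65 (adjusted p = 3.77e-05). That fit called 7080 of 16038 genes, against 3726 of 15916 with all libraries, so smaller p-values were common in it. Without flotillin library 1 the limma adjusted p was 0.0508 and the call was lost. The gene C10orf55 lies in the same locus and moved with it: 15.2 ± 0.927 normalized counts in flotillin cells and 63.2 ± 8.03 in control cells (SD, n = 3 each; authors' log2 fold change -1.91, DESeq2 adjusted p = 1.07e-05). The strand setting of the counting is not given here, so reads of overlapping genes in the locus cannot be told apart.

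PLAT (ENSG00000104368, chromosome 8, 42032236 to 42065242) encodes tissue plasminogen activator, the fibrin-bound activator of blood vessels. It had 1337, 1126 and 1704 normalized counts in flotillin libraries, against 6041, 7727 and 3622 in control libraries. No flotillin library reached the lowest control library. Its means were 1389 ± 292 in flotillin cells and 5797 ± 2063 in control cells (SD, n = 3 each), 4.17-fold lower in flotillin cells, with an authors' log2 fold change of -1.95 (DESeq2, adjusted p = 9.31e-08). The limma value of -2.01 (SE 0.301, adjusted p = 0.0054) passed in every setting tried, leave-one-out included. PLAT and PLAU shared a further trait: flotillin library 3 was the highest of its line and control library 3 the lowest of its line. Both differences were therefore larger without library 3 (PLAT log2 -2.48, PLAU log2 -2.65). That placing of library 3 was seen in 1055 of 15916 genes.

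PLG (ENSG00000122194, chromosome 6, 161123270 to 161174345), the substrate of both activators, was near the limit of counting. The flotillin libraries held 22, 11 and 8 reads and the control libraries 15, 30 and 5 reads. The groups overlapped fully: normalized means were 13.8 ± 7.26 in flotillin cells and 16 ± 12 in control cells (SD, n = 3 each), and the authors' log2 fold change of -0.17 did not pass (DESeq2, adjusted p = 0.87). In limma it was -0.02 with a standard error of 0.658, and it turned positive in 4 of 6 leave-one-out fits. PLGLB1, a near-identical partial copy of PLG, had a mean of 33.8 in flotillin cells and 36.5 in control cells, so the few PLG reads are uncertain in origin. Of the liver genes that accompany PLG in plasma, ALB averaged 2.35 in flotillin cells and 1.28 in control cells, while SERPINA1, an inhibitor of neutrophil elastase that epithelial cells also make, averaged 1628.5 ± 133.7 in flotillin cells and 6055.9 ± 2911.9 in control cells (SD, n = 3 each) and was called lower (authors' log2 fold change -1.76, DESeq2 adjusted p = 5.98e-05).

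PLAUR (ENSG00000011422, chromosome 19, 44150271 to 44174502) encodes the urokinase receptor, a protein held in the membrane by a lipid anchor. It had 204, 189 and 478 normalized counts in flotillin libraries, against 649, 259 and 1920 in control libraries. Library 3 was the highest of both lines, and flotillin library 3 lay above control library 2, so the groups overlapped. PLAUR averaged 290 ± 163 in flotillin cells and 943 ± 869 in control cells (SD, n = 3 each). The authors' deposited table called it lower (log2 fold change -1.43, DESeq2 adjusted p = 0.0361), as did the authors' deposited FPKM table (log2 -1.70, q = 0.000804). In limma it did not pass (log2 -1.38, SE 0.732, adjusted p = 0.202), nor in the alternatives without a term for library 3, with adjusted p between 0.0734 without library 3 of both lines and 0.397. With library 3 of both lines as a term in the fit, an alternative chosen after seeing the data, PLAUR passed (log2 -1.38, SE 0.354, adjusted p = 0.0157), and it was lower in flotillin cells both in library 3 and in libraries 1 and 2. Without control library 3 the log2 value was -0.63.

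SERPINE2 (ENSG00000135919, chromosome 2, 224839765 to 224904036) encodes protease nexin 1, a serpin that inhibits thrombin, urokinase and tissue plasminogen activator. It had 6259.6, 4834.4 and 7415.4 normalized counts in flotillin libraries, against 339.6, 392.1 and 567.7 in control libraries. The lowest flotillin library was far above the highest control library. The means of 6170 ± 1293 in flotillin cells and 433 ± 119 in control cells (SD, n = 3 each) differed 14.2-fold, higher in flotillin cells. The authors' log2 fold change was 3.67 (DESeq2, adjusted p = 3.88e-33), their FPKM table gave 3.79 (q = 0.000804) and limma 3.84 (SE 0.25, adjusted p = 0.000213). Library 3 was the highest of both lines, and without it the limma value was 3.91.

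**Figure D2:**
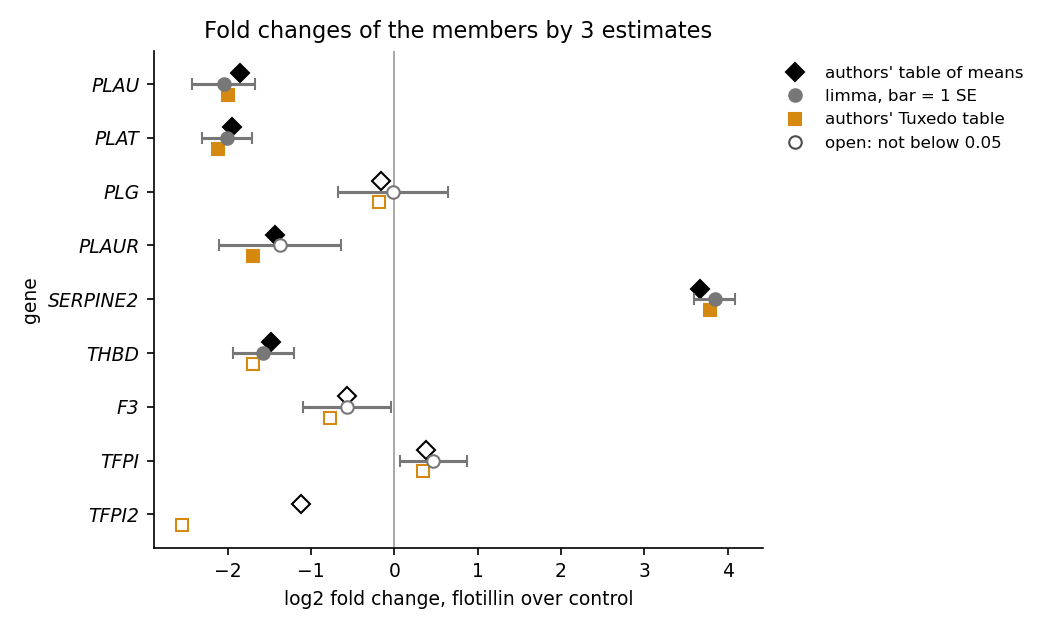
Log2 fold change of flotillin over control for each member from 3 sources: the authors' table of means, their FPKM (Tuxedo) table and limma on the solved libraries, with bars of 1 limma standard error (n = 3 each) and open symbols where the adjusted p or q was not below 0.05; TFPI2 was not fitted in limma, and its values rest on few reads. The 3 estimates have 1 sign for SERPINE2 (3.67 to 3.84), PLAT and PLAU, while the limma value of PLG is near 0.

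Of the coagulation members, THBD was called lower, and F3, TFPI and TFPI2 did not pass in the authors' table. F3 (ENSG00000117525, chromosome 1, 94994781 to 95007356), tissue factor, is the membrane receptor that starts clotting with factor VII. It had 1561, 1713 and 3954 normalized counts in flotillin libraries, against 1997, 2607 and 6707 in control libraries. Library 3 was the highest of both lines, and the groups overlapped. F3 averaged 2410 ± 1340 in flotillin cells and 3771 ± 2562 in control cells (SD, n = 3 each). It did not pass in the authors' table (log2 fold change -0.57, DESeq2 adjusted p = 0.388), in the FPKM table (q = 0.226) or in limma without a term for library 3 (log2 -0.57, SE 0.529, adjusted p = 0.442).

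TFPI (ENSG00000003436, chromosome 2, 187866603 to 188430487 in a locus that joins several genes) encodes a Kunitz-type inhibitor of factor Xa and of the tissue factor complex. It had 12615, 13228 and 7046 normalized counts in flotillin libraries, against 8931, 11458 and 4338 in control libraries. Library 3 was the lowest of both lines, the reverse of F3. TFPI averaged 10963 ± 3406 in flotillin cells and 8242 ± 3609 in control cells (SD, n = 3 each), and the log2 fold change of 0.38 did not pass (DESeq2, adjusted p = 0.503; limma 0.47, SE 0.402, adjusted p = 0.408). TFPI2 (ENSG00000105825, chromosome 7, 93220885 to 93540577 in a joined locus), its placental relative, had 0, 0 and 3 reads in flotillin libraries and 5, 0 and 17 reads in control libraries, too few for a fold, and did not pass (DESeq2, adjusted p = 0.27).

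THBD (ENSG00000178726, chromosome 20, 23026270 to 23030378) encodes thrombomodulin, the thrombin receptor that is also made by squamous epithelium. It had 20.0, 16.2 and 29.8 normalized counts in flotillin libraries, against 65.5, 49.7 and 85.9 in control libraries. The groups did not overlap, and library 3 was the highest of both. THBD averaged 22.0 ± 7.02 in flotillin cells and 67.0 ± 18.1 in control cells (SD, n = 3 each), 3.05-fold lower in flotillin cells (authors' log2 fold change -1.48, DESeq2 adjusted p = 0.00236; limma -1.57, SE 0.363, adjusted p = 0.0218). The FPKM table did not call THBD (log2 -1.69, q = 0.634). Its counts were low, and the cause of the missing call was not tested. The limma call was lost without flotillin library 1 (adjusted p = 0.0852), flotillin library 2 (0.0869) or control library 1 (0.0669). The noncoding RNA AL049651.1 shares its locus and had a mean of 921 ± 325 normalized counts in flotillin cells and 2597 ± 628 in control cells (SD, n = 3 each; authors' log2 fold change -1.42, DESeq2 adjusted p = 0.000232). Reads of the 2 genes cannot be told apart without the strand setting of the counting. Of the 7 endothelial markers, KDR was expressed in both lines, with means of 587.9 in flotillin cells and 640.8 in control cells, and TEK had 36.4 in flotillin cells and 52.1 in control cells. CDH5 and VWF were near 0, with mean normalized counts of 0.333 in flotillin cells and 0.956 in control cells for CDH5, and of 2.04 in flotillin cells and 2.59 in control cells for VWF.

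Library 3 divided the members into 3 patterns. It was the highest of both lines for 5 of 9 members (PLAUR, SERPINE2, THBD, F3 and TFPI2), where 28.0% of 15916 genes showed that. TFPI2, with its few reads, is not among those 15916 genes. Library 3 was otherwise placed for the other members. Library 3 was the lowest of both for PLG and TFPI, as it was for 3929 of the 15916 genes. For PLAU and PLAT it was the highest flotillin but lowest control library, as it was for 1055 of the 15916 genes. On the log2 scale, library 3 exceeded the mean of libraries 1 and 2 by 1.28 in flotillin cells and 2.22 in control cells for PLAUR, and by 1.27 in flotillin cells and 1.56 in control cells for F3. For PLAU the difference was 1.15 in flotillin cells and -0.65 in control cells. With library 3 of both lines as a term in limma, chosen after seeing the data, 7 of the 8 members fitted were called, where 46.1% of 15916 genes were. These were the 4 called without the term, PLAUR, F3 (log2 -0.57, SE 0.163, adjusted p = 0.0161) and TFPI (log2 0.47, SE 0.166, adjusted p = 0.0405). F3 was lower and TFPI higher in flotillin cells both in library 3 and in libraries 1 and 2, where the lines did not overlap. Leaving library 3 out of both lines instead, F3 (adjusted p = 0.0636) and TFPI (adjusted p = 0.156) did not pass in limma. The labels do not say what library 3 of each line shares, so the matching rests on the data alone.

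**Figure D3:**
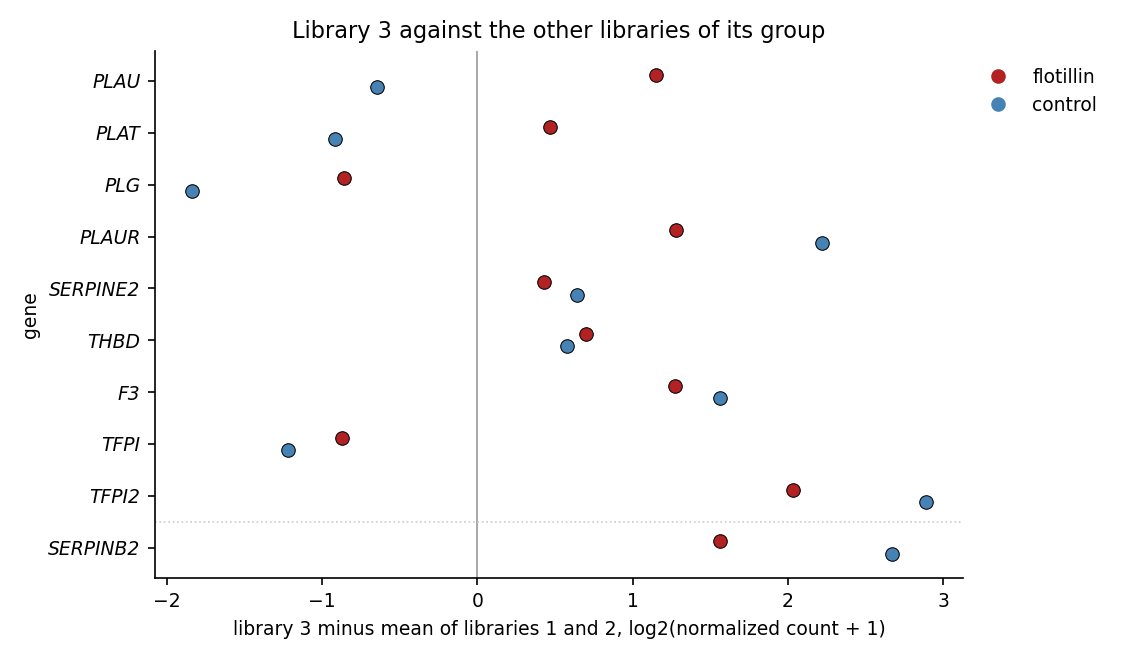
Library 3 minus the mean of libraries 1 and 2 on the log2(normalized count + 1) scale, for each member and, under the dotted line, SERPINB2, in flotillin cells and in control cells. PLAUR lies at 1.28 in flotillin cells and 2.22 in control cells, TFPI below 0 in both, and PLAU and PLAT on opposite sides of 0.

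Compared per length, the order of the genes differed between the lines. FPKM is fragments scaled by transcript length and library depth; the authors give 1 value per group, here divided over libraries in proportion to normalized counts to obtain a spread. In flotillin cells the order was TFPI (216.4), SERPINE2 (177.9), F3 (70.5), PLAT (41.3), PLAU (30.8), PLAUR (8.66), PLG (0.353), THBD (0.218) and TFPI2 (0.0551 FPKM). Libraries of neighbours did not overlap between SERPINE2 and F3, between PLAU and PLAUR, or between PLAUR and PLG. In control cells the order was PLAT (179.3), TFPI (171.3), PLAU (122.9), F3 (120.6), PLAUR (28.2), SERPINE2 (12.9), THBD (0.705), PLG (0.400) and TFPI2 (0.323 FPKM). Here all neighbours overlapped apart from F3 and PLAUR, and SERPINE2 and THBD. SERPINE2 thus stood above PLAT and PLAU in flotillin cells and below both in control cells. The summed level of PLAU and PLAT was 72.1 FPKM in flotillin cells and 302.2 FPKM in control cells.

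**Figure D4:**
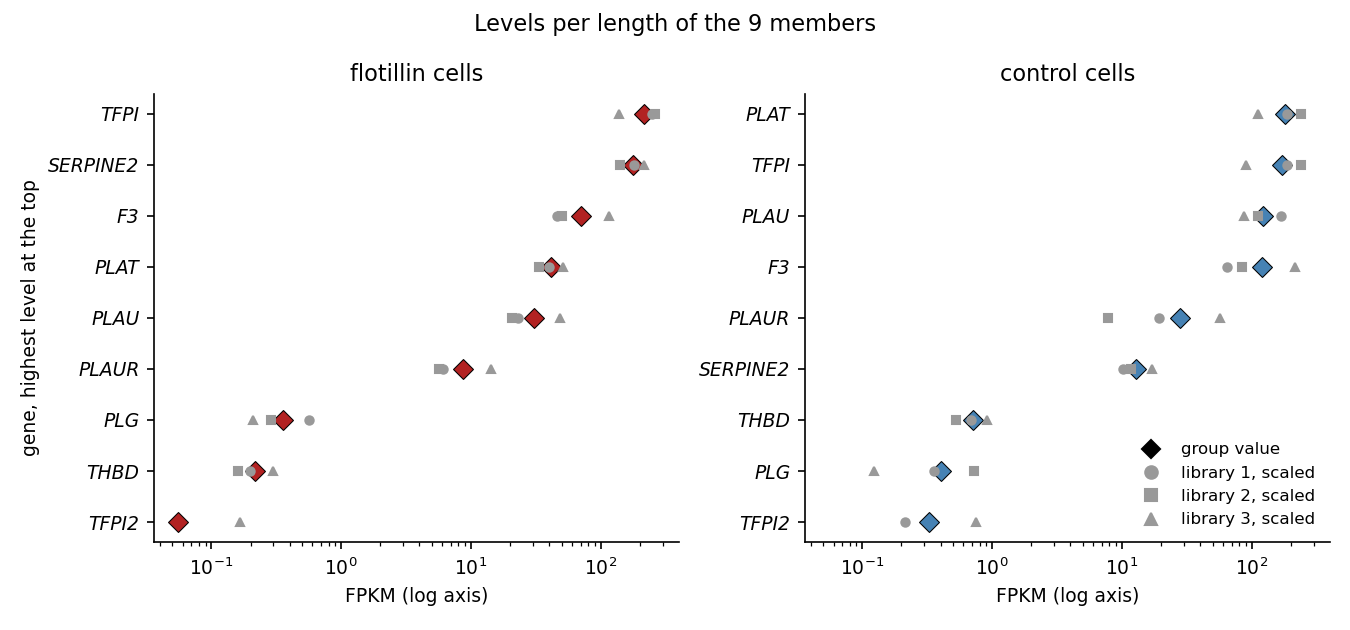
Level of the 9 members in FPKM on a log axis, flotillin cells left and control cells right, each ordered by level; diamonds mark the authors' group value and grey symbols its division over the 3 libraries, with libraries at 0 not drawn. SERPINE2 is at 177.9 FPKM in flotillin cells and 12.9 in control cells, and PLG, THBD and TFPI2 are below 1 FPKM in both.

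Ratios within a library, which do not depend on depth, separated the lines for both activators. That separation follows from the values above, since both activators were lower and SERPINE2 higher in every flotillin library. It is not a separate result. The ratio of PLAU to SERPINE2 normalized counts was 0.15, 0.177 and 0.269 in flotillin libraries, against 20.4, 11.7 and 6.34 in control libraries. PLAT to SERPINE2 was 0.214, 0.233 and 0.230 in flotillin libraries, against 17.8, 19.7 and 6.38 in control libraries. SERPINE2 exceeded each activator in all flotillin libraries, and each activator exceeded SERPINE2 in all control libraries. The ratio of urokinase to its receptor, PLAU to PLAUR, was 4.60, 4.53 and 4.17 in flotillin libraries, against 10.7, 17.7 and 1.87 in control libraries, and the groups overlapped. F3 to TFPI was 0.124, 0.130 and 0.561 in flotillin libraries, against 0.224, 0.228 and 1.55 in control libraries, with library 3 the highest of both lines.

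Of the other inhibitors of plasminogen proteases, 2 of 5 tested genes were called lower and none higher (DESeq2, authors' table), with a median log2 fold change of -0.56. Over all genes tested, 12% were lower and 11.6% higher. SERPINB2, plasminogen activator inhibitor 2, had 2, 0 and 4.11 normalized counts in flotillin libraries, against 175.5, 45.9 and 579.5 normalized counts in control libraries. It was called lower (authors' log2 fold change -3.27, DESeq2 adjusted p = 0.00013), and the log2 ratio of its 2 means was -7.03, since the authors' value is moderated towards 0 where reads are few or spread widely. SERPINF2, the plasmin inhibitor antiplasmin, averaged 32.4 ± 2.60 in flotillin cells and 122 ± 81.7 in control cells (SD, n = 3 each; log2 fold change -1.72, DESeq2 adjusted p = 0.00147).

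Among 10 tested genes whose proteins bind plasminogen or its activators, 3 were higher and 1 lower (DESeq2, authors' table), with a median log2 fold change of 0.47. Over all genes tested, 11.6% were higher and 12% lower. S100A10, which with annexin A2 docks tissue plasminogen activator and plasminogen, had 13367, 17466 and 16413 normalized counts in flotillin libraries, against 4660, 4081 and 9013 in control libraries (log2 fold change 1.33, DESeq2 adjusted p = 0.00089). MRC2, the collagen receptor that associates with the urokinase receptor, had 2462, 1727 and 2988 in flotillin libraries, against 954, 508 and 495 in control libraries (log2 fold change 1.77, DESeq2 adjusted p = 6.59e-06). Neither pair of groups overlapped. ENO1, an enolase that also binds plasminogen at the surface, was higher (log2 fold change 1.12, DESeq2 adjusted p = 0.00398). LRP1, the endocytic receptor for activator and inhibitor complexes, was lower at a low level, with 6, 9.12 and 6.17 normalized counts in flotillin libraries against 59.8, 22.0 and 19.8 in control libraries (log2 fold change -1.87, DESeq2 adjusted p = 0.00512), and was not called in the FPKM table (q = 0.839).

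The 5 tested contact activators and plasmin substrates gave no call (DESeq2, authors' table), beside 23.6% of all genes tested. Of them, 1 had an unadjusted p under 0.05. Only 2 reached the mean of 10 needed for limma, and 0 were called by limma or in the FPKM table. The rest were also marked as not tested in the FPKM table, so neither method could call them. In the coagulation list, which includes TFPI, TFPI2, THBD and F3, 2 of 10 tested genes were higher and 2 lower, with a median log2 fold change of -0.37. Over all genes tested, 11.6% were higher and 12% lower. F5, a cofactor of prothrombin cleavage, was the lowest, with normalized counts of 2.00, 1.01 and 1.03 in flotillin libraries against 222.9, 341.4 and 149.1 in control libraries (log2 fold change -5.99, DESeq2 adjusted p = 4.14e-27), a size that rests on 2, 1 and 1 flotillin reads. F8, the cofactor of factor IXa, had 564, 577 and 449 in flotillin libraries, against 110, 87.0 and 93.8 in control libraries, 5.47-fold higher in flotillin cells (log2 fold change 2.37, DESeq2 adjusted p = 2.8e-18). PROS1, the protein S cofactor of protein C, averaged 3642 ± 879 in flotillin cells and 1797 ± 473 in control cells (SD, n = 3 each; DESeq2 adjusted p = 0.00954).

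Of 9 tested genes with the Ly6 and uPAR domain of PLAUR, 1 was higher and 1 lower, beside 23.6% of all genes called (LYNX1, log2 fold change 1.09, DESeq2 adjusted p = 0.031; LYPD3, -0.90, adjusted p = 0.0357), with a median log2 fold change of -0.05. The FPKM table did not call LYNX1 (q = 0.802), and limma did not call LYPD3 (adjusted p = 0.0666). Of 5 tested genes with the Kunitz domain of TFPI, 3 were lower (median log2 fold change -0.56), beside 12% of all genes tested. The SPINT2 entry used lies on chromosome 20, had 0 reads and was not tested. The largest difference was in SPINT1, the inhibitor of hepatocyte growth factor activator and matriptase. It averaged 1786 ± 111 normalized counts in flotillin cells and 7357 ± 1383 in control cells (SD, n = 3 each), 4.12-fold lower in flotillin cells (log2 fold change -1.99, DESeq2 adjusted p = 6.98e-15). APP (log2 fold change -0.77, DESeq2 adjusted p = 0.00364) and APLP2 (-0.56, adjusted p = 0.0332) differed less, and the FPKM table called neither (q = 0.134 and 0.0912).

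**Figure D5:**
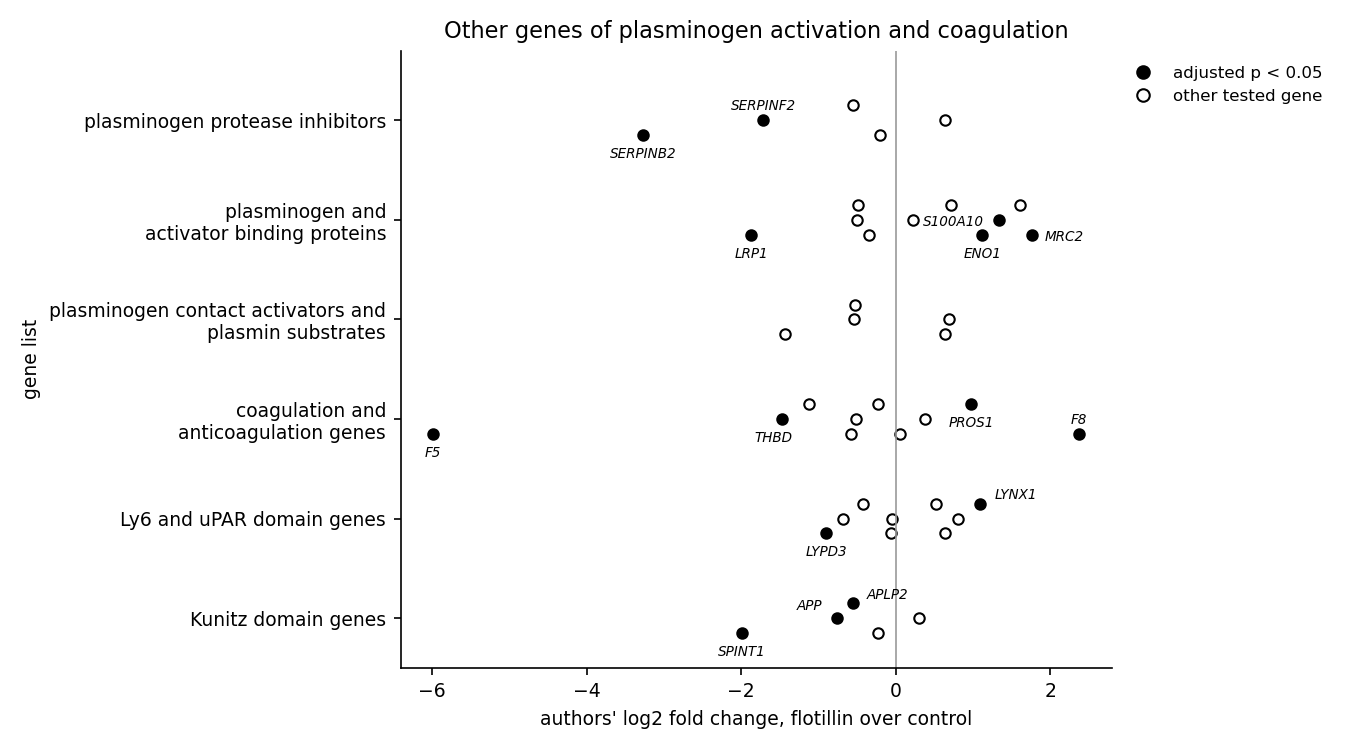
Log2 fold change (flotillin over control, authors' table) of each tested gene in the 6 other lists, 1 row per list; filled points passed the adjusted p of 0.05 and are named, open points did not. F8 is the highest point at 2.37 and F5 the lowest at -5.99, and no contact activator or plasmin substrate passed.

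The genes whose log2(normalized count + 1) followed a member most closely over the 6 libraries were read as a description, among 11382 genes with a mean of at least 100. The points share the 2 lines and the deviation of library 3. For PLAU they were EPHB2, an ephrin receptor (Pearson r = 0.997), SMYD4 (0.991) and SH3PXD2A, a scaffold of invasive membrane protrusions (0.989). For SERPINE2 they were NACC2 (0.999), EFCAB2 (0.999) and TXNRD1, thioredoxin reductase (0.998). For PLAT they were RNF165 (0.998), MSH5 (0.997) and ATRN (0.997), and for PLAUR PCNXL3 (0.998), ELF4 (0.997) and LY6K (0.995). TFPI was closest to ETFDH (0.998) and F3 to RTN4 (0.993).

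Summed over 8 solved fibroblast markers, libraries ranged from 495 to 1939 normalized counts in flotillin cells and from 553 to 1184 in control cells, with 1 marker at 0. That sum leaves out DCN, the most abundant of the list, whose flotillin mean was not solved: its authors' mean was 42466.8 in flotillin cells and 4658.7 in control cells (log2 fold change 2.79, DESeq2 adjusted p = 3.01e-07). Of 6 tested fibroblast markers, 3 were called higher (DCN, LUM and PDGFRB) and 1 lower (COL1A1), beside 11.6% higher and 12% lower over all genes tested. The 7 endothelial markers summed to 427 to 820 in flotillin cells and 283 to 966 in control cells, most of it KDR. The 8 immune markers, 2 of them at 0, summed to 1223 to 1831 in flotillin cells and 1064 to 3124 in control cells. CD68, the largest part of that sum in the flotillin libraries, did not pass. Of 5 tested immune markers, 3 were called lower (CD14, CSF1R and ITGAM) and none higher, beside 12% of all genes tested lower. CD14 averaged 117.7 in flotillin cells and 743.2 in control cells (DESeq2 adjusted p = 3.38e-05). Basal markers, 6 of them solved, summed to 37431 to 54094 in flotillin cells and 78078 to 106131 in control cells. That sum was lower in flotillin cells, as PLAU, PLAT, PLAUR and THBD were. It leaves out KRT5 and LAMB3, which were not solved in at least 1 line. KRT5, the most abundant of the list, went the other way, with authors' means of 67351 in flotillin cells and 48381 in control cells (DESeq2 adjusted p = 0.24). LAMB3 had authors' means of 14555 in flotillin cells and 25944 in control cells (DESeq2 adjusted p = 0.0417). Luminal markers summed to 7545 to 19168 in flotillin cells and 17900 to 20782 in control cells, with MUC1 the largest part. Of 6 tested luminal markers, 1 was called lower, EPCAM, beside 12% of all genes tested. EPCAM averaged 81.0 in flotillin cells and 4607.5 in control cells (DESeq2 adjusted p = 3.77e-94). KRT8 averaged 3494 in flotillin cells and 2043 in control cells and did not pass. The KRT18 entry used lies on chromosome 4 and had 0 reads, so the sum may lack KRT18. Liver markers summed to 1529 to 1785 in flotillin cells and 2714 to 8049 in control cells, nearly all of it SERPINA1. The part of these differences in the members' values was not tested.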

How the data were processed

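Per the labels' protocols, poly(A) RNA was made into stranded libraries and sequenced on an Illumina HiSeq. The submitters' processing notes name bcl2fastq, DESeq2 1.18.1, HTSeq 0.9.1, HISAT2 2.1.0 and the build GRCh37. The authors deposited a table whose signal columns are group means of size-factor-normalized counts, with their log2 fold changes (moderated, as the values show), p-values and adjusted p-values, per the file headers. A second deposited table, from the Tuxedo pipeline, holds FPKM, log2 fold changes, a test score and q-values of the authors, per the file headers; no version of it is stated here.

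Each mean has 15 significant digits and is a sum of 3 whole read counts, each over 3 times a size factor. The reads were solved by a search over whole numbers, for 99.75% of means above 0 in each group, keeping unique solutions; no mean under 24285.1 in flotillin or 21061.7 in control cells was left unsolved. Since both tables hold group values, no count model was fitted. The main result is the authors' calls, which weigh all 6 libraries. limma 3.58.1 in R 4.3.3 (trend, robust, Benjamini-Hochberg over all genes fitted) was run on log2(normalized count + 1), and the search and fit were tested on simulated data. There limma recovered 47% of 2-fold and 94% of 4-fold changes, and 4.08% of its calls were false. The simulated libraries held no shared deviation of library 3. The search was simulated only on means lower than the highest it solved. Alternatives were the FPKM table, a threshold of 0.01, pseudocounts of 0.5 and 5, other filters and scalings, left-out libraries and, added after seeing the data, a term for library 3 of both lines.

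All 9 members are named. From each other list, called genes were named, at most 5 by size of log2 fold change, and SERPINB2 in any case; 1 gene of these lists is not reported here. Genes outside this rule (C10orf55, AL049651.1, PLGLB1 and single markers) were chosen after their values were seen. The members and lists were chosen with earlier results of these data known.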

Additional observations from a re-analysis of the deposited data

How the results depend on the processing

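Of the 9 members, 5 were called in the authors' table, 4 at an adjusted p under 0.01, 4 in the FPKM table and 4 by limma. In limma, leaving out 1 library in turn gave 2 to 4 called members, with 2 without flotillin library 1, where PLAU and THBD were lost, and a mean of at least 100 left 3 called of 6 fitted. With library 3 of both lines as a term, chosen after seeing the data, 7 of 8 fitted members were called and 7332 genes in all; PLAUR passed in no other limma setting, and SERPINE2 and PLAT passed in every one. The sign changed for PLG alone: 0.068 without flotillin library 2, 0.27 without flotillin library 3, 0.046 without control library 1 and 0.53 without control library 2, each on the log2 scale. Calls over all genes were 3726, with 7080 without library 3 of both lines, 6442 without control library 3, and for the other left-out libraries 999 (flotillin library 1), 1141 (flotillin library 2), 2290 (flotillin library 3), 1728 (control library 1) and 1642 (control library 2). The cause of these changes was not tested; fits with a library left out have fewer samples, and a group of 2 is assumed to vary like the other. No paired analysis was possible because the solved libraries carry no replicate number; the term for library 3 matches libraries by their values, not by the design. Depth limits PLG and TFPI2, with at most 30 reads per library.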
